A study of Polypterus senegalus with 8 samples.

Results

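The microRNAs (miRNAs) miR-221 and miR-222 were followed in the regenerating pectoral fin of the bichir, Polypterus senegalus, a fish able to rebuild a lost fin. Every row of the deposited miRNA table that carries the name miR-221 or miR-222, with any letter, was taken. This gave 3 of the 153 rows, which are named pse-miR-221-1-3p, pse-miR-222a-3p and pse-miR-222b-3p and are called miR-221, miR-222a and miR-222b below. The 4 small RNA libraries came from uninjured fins (0 days post amputation, dpa) and from fins 3, 7 and 14 dpa, cut with a scalpel under anesthesia with MS222. The fish came from an aquarium supplier, their age was not given, and no other treatment or genotype was named. Each stage was 1 library of pooled tissues, so differences were not tested and could not be checked against replicates. Intervals in parentheses are 95% intervals for counting error alone, and reads copied by PCR are not independent molecules.

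A miRNA hairpin is cut into a short duplex, and either strand, the 5p arm or the 3p arm, can be loaded into an Argonaute protein to repress messenger RNAs that pair with its seed, bases 2 to 8. In mammals miR-221 and miR-222 are made from neighbouring hairpins of 1 primary transcript, and their 3p arms share a seed. Those 3p arms are known there as repressors of the cell cycle inhibitor Cdkn1b and of the receptor Kit, and have been studied in growing vascular smooth muscle and in blood progenitor cells.

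The sequences that the study lists for the 3 rows are shown first, with the seed in capitals, because they decide which arm each row counts. They are read 5′ to 3′ in DNA letters.

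miR-221: aCCTGGCAtacaatgtagatttct

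miR-222a: aGCTACATctggctactgggtct

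miR-222b: tGCTCAGTagtcagtgtagatt

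All 3 seeds differed, and no other row of the table had a listed sequence with any of these seeds. Only the miR-222a sequence was a 3p arm. The miR-221 and miR-222b sequences carried notes in that list calling them miR-221-5p and miR-222b-5p, against the 3p of their row names. Notes of the other arm stood beside 11 of the 153 rows, these 2 included. By sequence the members were thus both 5p (miR-221 and miR-222b) and 3p (miR-222a). For comparison, the 3p arm of miR-221 as listed for the zebrafish and the axolotl has the seed of miR-222a. This arm was not analysed here. The study's supplementary tag list holds the 3p arm of miR-221, and longer or shorter forms of the miR-222 sequences, as separate tags, so each row seems to count reads of 1 exact sequence. Levels, shares and ratios below are then those of exact sequences, not of all reads of an arm.

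miR-221 3p arm, zebrafish and axolotl: aGCTACATtgtctgctgggttt

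The 3 sequences were then aligned without gaps to the zebrafish hairpins of the same list, since no bichir genome was used. Both hairpins below lie on zebrafish chromosome 9, minus strand, and the stretches matched by the bichir rows are in capitals.

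Zebrafish miR-221-1 hairpin: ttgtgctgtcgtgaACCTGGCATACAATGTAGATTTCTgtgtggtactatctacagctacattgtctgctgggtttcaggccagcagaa

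Zebrafish miR-222a hairpin: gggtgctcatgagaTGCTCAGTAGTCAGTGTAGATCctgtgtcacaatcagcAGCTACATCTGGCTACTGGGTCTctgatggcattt

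The miR-221 sequence matched the 5p arm of the miR-221-1 hairpin over all 24 bases. The miR-222a sequence matched the 3p arm of the miR-222a hairpin over all 23 bases. The miR-222b sequence matched the 5p arm of that same miR-222a hairpin at 21 of 22 bases. The one difference, counted from 1 at the 5′ end of the bichir sequence, was T22C. In the zebrafish miR-222b hairpin, which lies on chromosome 21, the same sequence matched 17 of 22 bases, so the row named miR-222b was closer to the 5p arm of miR-222a. Whether both sequences come from 1 bichir hairpin was not tested.

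Read counts were scaled to 1000000 miRNA reads per library, giving CPM. The libraries of 0, 3, 7 and 14 dpa held 6083774, 3353354, 196763 and 6858045 reads. The 7 dpa library stood apart. It was 30.9 times shallower than the 0 dpa library, 1 read in it was worth 5.08 CPM, and 64 miRNAs were highest there, 45.1% of those averaging 10 CPM or more. All but 11 of the 153 rows passed this minimum, and the passing rows, the 3 members among them, are the background of all shares and ranks of change below. miR-21, the most abundant miRNA after amputation, took 14.5% of reads at 0 dpa and 60.3%, 52.7% and 62.5% at 3, 7 and 14 dpa. All other miRNAs together thus had a smaller share of the reads after amputation.

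miR-221 had 370, 170, 714 and 294 reads at 0, 3, 7 and 14 dpa. In CPM these were 60.8 (54.8 to 67.3), 50.7 (43.4 to 58.9), 3629 (3368 to 3904) and 42.9 (38.1 to 48.1) in the same order. The 7 dpa library was thus the only one in which miR-221 was abundant. Among the 153 miRNAs its rank was 127th before amputation, 110th at 3 dpa, 35th at 7 dpa and 99th in the last library. Among the other 3 libraries, the interval of the log2 change in CPM from 0 to 3 dpa (-0.52 to 0.0032) included no change. So did that from 3 to 14 dpa (-0.51 to 0.038). The interval from 0 to 14 dpa (-0.72 to -0.27) lay wholly below 0. Under scalings by the typical miRNA, a trimmed mean of log ratios or the median of ratios, miR-221 was instead above 0 dpa. Its changes were then 0.97 and 0.94 at 3 dpa, and 0.65 and 1.03 at 14 dpa.

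miR-222a, the 3p sequence, had 1825, 371 and 559 reads at 0, 3 and 7 dpa and its fewest at 14 dpa. Its levels over the 4 libraries were 300.0 CPM (286 to 314), 111 CPM (99.7 to 122), 2841 CPM (2611 to 3086) and 30.3 CPM (26.3 to 34.7). Under library totals no intervals overlapped, and the order was 7, 0, 3 and 14 dpa from the highest to the lowest. In unscaled reads the order was 0, 7, 3 and 14 dpa. From 0 to 3 dpa miR-222a changed by -0.19 under a trimmed mean of log ratios and by -0.23 under the median of ratios. Both values lay near that of the median miRNA (-0.16 and -0.20). The rank of miR-222a was 96th, 88th, 42nd and 109th at 0, 3, 7 and 14 dpa.

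miR-222b, whose sequence matched a 5p arm, had 6588, 3778, 77 and 2879 reads at 0, 3, 7 and 14 dpa. These were 1083 CPM (1057 to 1109), 1127 CPM (1091 to 1163), 391 CPM (309 to 489) and 420 CPM (405 to 435). The levels formed a higher pair at 0 and 3 dpa and a lower pair at 7 and 14 dpa. Within each pair the interval of the log2 change included no change (-0.00094 to 0.11 for 3 against 0 dpa, -0.22 to 0.45 for 14 against 7 dpa). These pairs hold for library totals, and not for scalings that set libraries by their typical miRNA (a trimmed mean of log ratios, or the median of ratios). From 7 to 14 dpa miR-222b changed by 1.58 under the trimmed mean, 1.78 under median of ratios and 5.21 with no depth scaling, and it lay 1.57 above the change of the median miRNA under library totals. It was the most abundant of the 3 members at 0, 3 and 14 dpa and the least abundant at 7 dpa.

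**Figure D1:**
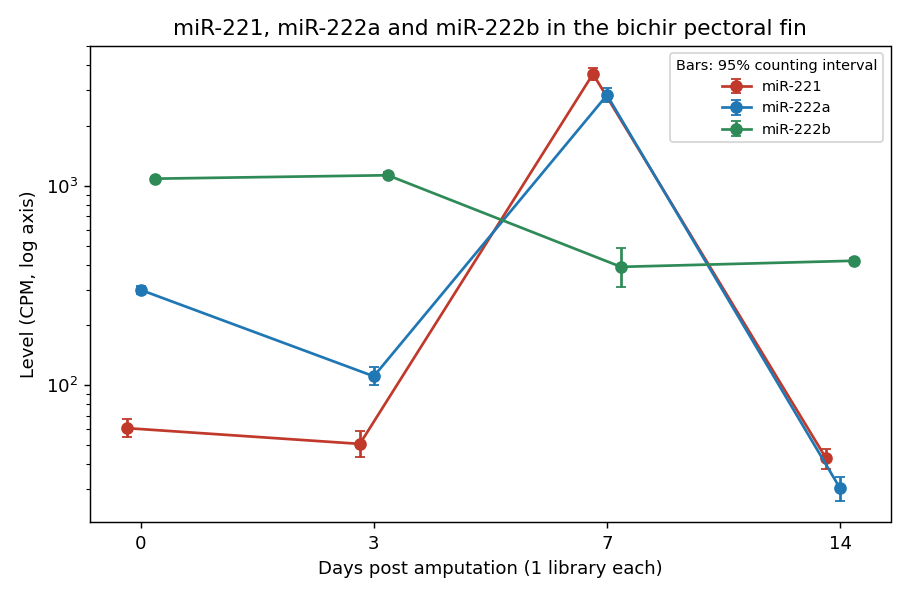
Levels of miR-221, miR-222a and miR-222b in CPM on a log axis by days post amputation (0, 3, 7, 14), 1 library each, with bars for 95% counting intervals. miR-221 and miR-222a peak at 7 dpa at 3629 and 2841 CPM, where miR-222b is at 391 CPM.

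To ask how the members moved relative to uninjured tissue, differences of log2(CPM + 1) from 0 dpa were taken, a scale that understates changes of low miRNAs. A change over 0.58 in size, 1.5-fold, was counted. Folds beside a log2 change are ratios of CPM without the added 1 and so differ slightly from it. At 7 dpa 2 of the 3 members were higher and 1 was lower, beside 38.7% of all such miRNAs higher and 38.0% lower. miR-221 changed by 5.88 (5.69 to 6.06) and was 59.7-fold higher in CPM, the second-largest rise of the background on this scale. Without the added 1, miR-727 (0.33 and 55.9 CPM at 0 and 7 dpa, from 2 and 11 reads) would also stand above it. miR-222a changed by 3.24 (3.10 to 3.38) and was 9.47-fold higher in CPM, in 14th place. miR-222b changed by -1.47 (-1.81 to -1.14), 2.77-fold lower in CPM, in 100th place. The median miRNA changed by 0.21 at 7 dpa, and relative to it the members changed by 5.66, 3.03 and -1.68.

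At 3 dpa 0 of the 3 members were over 1.5-fold higher and 1 was lower, beside 18.3% of all such miRNAs higher and 66.2% lower. miR-222a changed by -1.43 (-1.59 to -1.27), whereas miR-221 changed by -0.26 and miR-222b by 0.057. The median miRNA changed by -1.35, and relative to it miR-222a changed by -0.077, miR-221 by 1.10 and miR-222b by 1.41.

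At 14 dpa 0 members were higher and 2 were lower, beside 14.1% of all such miRNAs higher and 67.6% lower. miR-222a changed by -3.26 (-3.47 to -3.06), 9.89-fold lower in CPM and the lowest level of any member in any library. miR-222b changed by -1.37 (-1.43 to -1.30), and miR-221 by -0.49 (-0.72 to -0.27). The median miRNA changed by -1.43, and relative to it miR-222a changed by -1.84, miR-222b by 0.060 and miR-221 by 0.93. The comparisons with 0 dpa share that library, so their values are not independent of each other.

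**Figure D2:**
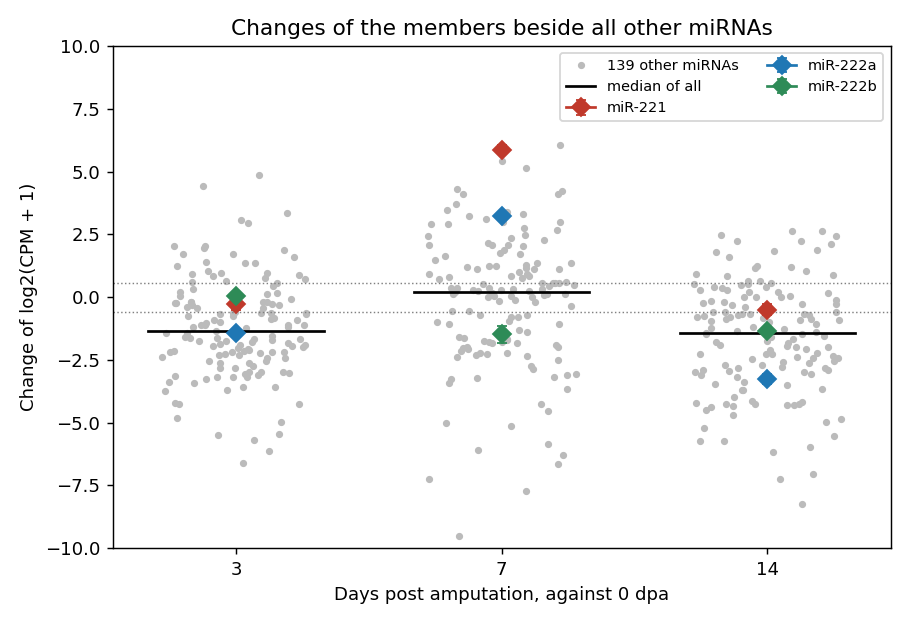
Change of log2(CPM + 1) from 0 dpa at 3, 7 and 14 days post amputation. Diamonds are miR-221, miR-222a and miR-222b with 95% counting intervals, grey points are other miRNAs averaging 10 CPM or more, black lines mark the median of all and dotted lines 1.5-fold. At 7 dpa miR-221 (5.88) sits near the top and miR-222b (-1.47) below the median of 0.21.

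The libraries were also compared with each other after amputation. From 3 to 7 dpa miR-221 changed by 6.13 (5.89 to 6.38) and miR-222a by 4.67 (4.48 to 4.86), where the median miRNA changed by 1.09, and miR-222b changed by -1.52 (-1.87 to -1.20). From 7 to 14 dpa miR-221 and miR-222a changed by -6.37 (-6.57 to -6.18) and -6.50 (-6.73 to -6.28). These were among the largest falls, with only 2.82% and 2.11% of the background below them and a median change of -1.47. Across 3 and 14 dpa, the 2 libraries on either side of the peak, miR-221 changed by -0.24, miR-222a by -1.83 (-2.08 to -1.59) and miR-222b by -1.42 (-1.49 to -1.35). The median miRNA changed by -0.34 there, and relative to it miR-221 changed by 0.10, miR-222a by -1.49 and miR-222b by -1.08.

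Each scaling multiplies a whole library, so it moves all miRNAs together and leaves their places relative to the median miRNA almost as they were. Over the 5 scalings tried, miR-221 lay 1.10 to 1.14 above the median change at 3 dpa, 5.65 to 5.67 above it at 7 dpa and 0.93 to 0.95 above it at 14 dpa. Relative to that median, miR-222a changed by -0.077 to -0.027 at 3 dpa, 3.00 to 3.03 at 7 dpa and -1.85 to -1.84 at 14 dpa. miR-222b changed by 1.41 to 1.47, -1.70 to -1.68 and 0.060 to 0.087 relative to it.

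The changes from 0 dpa themselves shifted with the median. At 7 dpa miR-221 changed by 5.56 under the trimmed mean, 5.74 under median of ratios, 6.73 under totals without miR-21 and 0.95 with no depth scaling. In that order the median miRNA changed by -0.10, 0.078, 1.06 and -4.70, the last reflecting the shallow 7 dpa library. miR-222a changed by 2.92, 3.11, 4.09 and -1.71, and miR-222b by -1.78, -1.60, -0.61 and -6.40. Unscaled, miR-221 went from 370 to 714 reads. Only 4 miRNAs, 2.82% of the background, had more reads at 7 dpa than at 0 dpa, namely miR-221, miR-31, miR-2188 and miR-727, the last with 11 reads.

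At 3 dpa the median miRNA changed by -0.16 under the trimmed mean, -0.20 under median of ratios and -0.30 without miR-21, against -1.35 under library totals. miR-221 then changed by 0.97, 0.94 and 0.84, miR-222b by 1.31, 1.27 and 1.16, and miR-222a by -0.19, -0.23 and -0.33. At 14 dpa the median changed by -0.29, 0.094 and -0.27 under the same scalings. miR-221 changed by 0.65, 1.03 and 0.68, miR-222b by -0.20, 0.18 and -0.18, and miR-222a by -2.13, -1.75 and -2.11. Of the members, miR-222a alone was past 1.5-fold at 14 dpa under these and library totals alike.

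**Figure D3:**
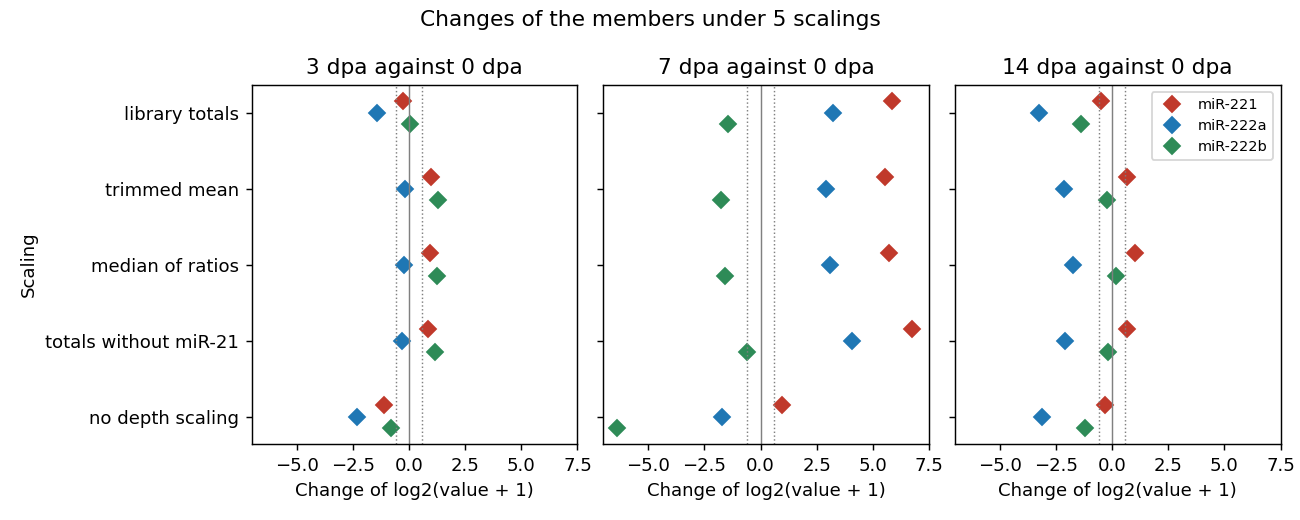
Change of log2(value + 1) of miR-221, miR-222a and miR-222b from 0 dpa at 3, 7 and 14 dpa under 5 scalings, with dotted lines at 1.5-fold. miR-221 is to the right of 0 at 7 dpa under all 5, from 0.95 to 6.73, and shifts with all miRNAs between scalings.

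Ratios of read counts within a library do not depend on scaling, so the balance of the members was read from them. The share of miR-222a among the reads of miR-222a and miR-222b, the 3p and 5p sequences that matched 1 zebrafish hairpin, was 21.7% before amputation (20.8% to 22.6%, Clopper-Pearson) and 8.94% (8.09% to 9.85%) at 3 dpa. It was 87.9% (85.1% to 90.3%) at 7 dpa and 6.74% (5.88% to 7.68%) at 14 dpa. The 5p sequence thus led in 3 libraries, by 3.61, 10.2 and 13.8 reads per 3p read at 0, 3 and 14 dpa, and the 3p sequence led at 7 dpa, by 7.26 to 1. Relative to 0 dpa the log2 ratio of miR-222a to miR-222b changed by -1.50 (-1.67 to -1.33) at 3 dpa and by -1.94 (-2.16 to -1.72) at 14 dpa, against 4.71 (4.36 to 5.06) at 7 dpa, or 26.2-fold. The 7 dpa value rests on 77 reads of miR-222b.

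The ratio of miR-221 to miR-222b, both 5p sequences, moved in the same way at 7 dpa. Per read of miR-222b there was 0.056, 0.045, 9.27 and 0.102 read of miR-221 at 0, 3, 7 and 14 dpa. The log2 ratio changed by 7.37 at 7 dpa (7.00 to 7.74), against -0.32 at 3 dpa (-0.59 to -0.051) and 0.86 at 14 dpa (0.63 to 1.09). At 7 dpa the pair of 5p sequences thus went opposite ways.

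The ratio of miR-222a, a 3p sequence, to miR-221, a 5p sequence, had another course. Their hairpins are cluster partners in mammals, but a ratio across arms does not give the balance of the hairpins. Before amputation there were 4.93 reads of miR-222a (4.41 to 5.53) per read of miR-221, and at 3 dpa there were 2.18 (1.82 to 2.63). This ratio was 0.783 (0.700 to 0.876) in the 7 dpa library and 0.707 (0.589 to 0.848) in the last. miR-222a was the more abundant at 0 and 3 dpa, and miR-221 at 7 and 14 dpa. The change from 0 dpa on the log2 scale was -1.18 (-1.48 to -0.87) at 3 dpa, followed by -2.66 (-2.88 to -2.43) and -2.80 (-3.10 to -2.50) in the later libraries. The intervals of the ratio at 7 and 14 dpa overlapped.

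**Figure D4:**
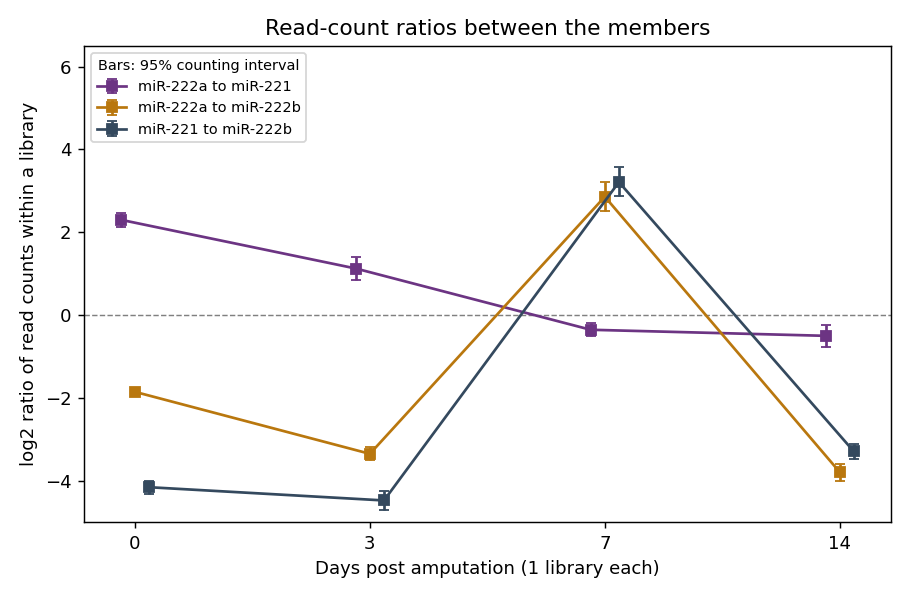
Log2 ratio of read counts within each library for the 3 pairs of members by days post amputation (0, 3, 7, 14), with bars for 95% counting intervals. Both ratios to miR-222b cross 0 at 7 dpa alone (2.86 for miR-222a and 3.21 for miR-221), while the ratio of miR-222a to miR-221 falls from 2.30 at 0 dpa to -0.50 at 14 dpa.

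These ratio changes were set beside those of other miRNAs, as a description. Only miR-222a and miR-222b share a number. Over all 8385 pairs of miRNAs with more than 3 reads at 0 and 7 dpa, the median absolute change of the log2 ratio at 7 dpa was 2.28. It was smaller than that of the members in 96.5% of pairs for miR-221 to miR-222b (7.37), in 83.3% for miR-222a to miR-222b (4.71) and in 57.2% for miR-222a to miR-221 (2.66 in size). Over the 80 other pairs whose members share a miRNA number, such as letter variants, the median was 1.39 and the largest 6.21, and 69 of them changed less than miR-222a to miR-222b. By sequence miR-222a and miR-222b are a 3p and a 5p arm, whereas these other pairs were not chosen by arm.

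At 3 dpa the median was 1.88 over all pairs and 0.82 over 82 same-number pairs. The change was smaller in 33.0% of all pairs for miR-222a to miR-221, in 41.2% for miR-222a to miR-222b and in 9.12% for miR-221 to miR-222b. At 14 dpa, with medians of 2.16 and 1.12, these shares were 61.6%, 45.4% and 21%. Of the 82 same-number pairs, 67 at 3 dpa and 56 at 14 dpa changed less than miR-222a to miR-222b. Only at 7 dpa were both ratios to miR-222b past the median of all pairs.

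Together the 3 members made up 1444, 1288, 6861 and 493 CPM at 0, 3, 7 and 14 dpa. miR-222b was 75.0% of this sum at 0 dpa, 87.5% at 3 dpa and 85.2% at 14 dpa, and 5.70% at 7 dpa. miR-221 was 52.9% of the sum at 7 dpa and between 3.94% and 8.70% in the other libraries.

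miRNAs with the most similar course were sought by the Euclidean distance between profiles of log2(CPM + 1) over the 4 libraries, centred on each miRNA's mean, which gives 4 points per profile from libraries of unequal depth. The nearest to miR-221 were miR-727 (distance 0.41), miR-7b (1.37) and miR-31 (1.81), where the median distance was 5.13. miR-727 had 2, 0, 11 and 0 reads, too few to describe a course. miR-7b had 62.6, 54.9, 1204 and 33.0 CPM at 0, 3, 7 and 14 dpa. miR-31, whose row also carries a note of the other arm, had 53.7, 89.5, 1952 and 121 CPM. miR-222a stood in 13th place. The nearest to miR-222a were miR-150 (0.77), let-7h (0.84) and let-7j (0.84), with a median of 4.13. miR-150, known from lymphocytes, had 1441, 296, 9092 and 72.9 CPM. The nearest to miR-222b were miR-9 (1.05), miR-30d (1.15) and miR-30e (1.15), with a median of 3.00, and miR-222a and miR-221 stood 130th and 140th of the 141 other miRNAs.

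Leaving out a library can only shorten such distances, and without the 7 dpa library the median distance from miR-221 was 1.59. miR-222b then moved from 101st to 35th nearest to miR-221, at 0.87, while miR-222a moved from 13th to 91st, at 1.97 and beyond the median. None of the 3 nearest miRNAs of miR-222a or miR-222b was kept when that library was left out, and of miR-221 only miR-727 was. With 2, 0 and 0 reads at 0, 3 and 14 dpa, miR-727 passed the minimum mean only through the 7 dpa library. Its place therefore shows no shared course.

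The vascular role known from mammals is that of the 3p arms, and of the members only miR-222a is a 3p sequence. Because of this role, 9 miRNAs known from the same cells were read beside the members. The 4 tied there to the differentiated state (miR-1b, miR-133a, miR-143 and miR-145) were all over 1.5-fold lower at each time point, also under the trimmed mean, with median changes of -5.22, -4.62 and -4.98 at 3, 7 and 14 dpa. Over the whole background 66.2%, 38.0% and 67.6% were lower and the medians were -1.35, 0.21 and -1.43. These 4 rows recur in the cell type lists below, miR-1b and miR-133a as muscle and miR-143 and miR-145 as vascular. Their falls are thus not separate from those of these lists. Which cells the falls came from was not tested. The 5 tied there to growth were divided. At 7 dpa 3 were higher and 2 lower, with a median of 0.59, beside 38.7% and 38.0% of the background. miR-21 changed by 1.86 and miR-31 by 5.16, whereas miR-24 changed by -1.40 and miR-26a by -2.05. miR-146a changed by 0.59, just past the threshold, and under the trimmed mean only 2 of the 5 were higher. At 3 dpa 3 were higher and 2 lower (background 18.3% and 66.2%), with a median of 0.64, and at 14 dpa 2 and 2 (14.1% and 67.6%), with a median of -0.57.

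Lists of miRNAs known from single cell types also differed between the libraries, and in bulk tissue fewer cells of a type and less RNA per cell cannot be told apart. The leukocyte list (miR-142a, miR-150 and miR-223) summed to 5290, 6878, 29142 and 1153 CPM over the 4 libraries. This sum was highest at 7 dpa, where 45.1% of the background miRNAs were highest, and lowest at 14 dpa. All 3 rows were over 1.5-fold higher at 7 dpa, beside 38.7% of the background, and all 3 lower at 14 dpa, beside 67.6%. At 3 dpa 1 row was higher and 1 lower, the latter being miR-150 with a change of -2.28. The 6 epithelial rows (miR-200, miR-203 and miR-205) had their highest sum at 7 dpa as well, 110193 CPM against 24977 CPM at 0 dpa, with 3 rows higher and 0 lower. Their sums of 56267 and 46175 CPM at 3 and 14 dpa covered 2 rows higher and 2 lower, then 3 higher and 3 lower. The erythroid sum (miR-144 and miR-451) was 278 CPM at 0 dpa and 7084, 1520 and 804 CPM afterwards, highest at 3 dpa. Both rows were higher at 3 dpa, 1 was higher and 1 lower at 7 dpa, and 1 was higher at 14 dpa. The 3 vascular rows (miR-126a, miR-143 and miR-145) fell from 53482 CPM to 10634, 2282 and 5890 CPM, and the 5 muscle rows from 247585 CPM to 8644, 2648 and 22364 CPM, with each row of both lists over 1.5-fold lower at each time point. For all these row counts, 18.3%, 38.7% and 14.1% of the background was higher at 3, 7 and 14 dpa. In the same order 66.2%, 38.0% and 67.6% was lower. The 3 of 6 epithelial rows higher at 7 dpa were thus near the background share, with 0 lower. No row of these lists was at 0 in any library. The rows of miR-142a, miR-203b and miR-126a carry notes of the other arm. The paper describes bichir fins as lacking skeletal muscle, and the source of the muscle rows was not tested. The part of leukocytes, epithelium and the lower muscle and vessel signal in the values of the members was not tested.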

How the data were processed

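The libraries were small RNA libraries of total RNA, read on a Genome Analyzer IIx. The authors clipped adapters, trimmed by quality and merged equal reads into tags with the FASTX Toolkit, and named tags of 20 to 25 bases with miRMiner against miRBase version 21. The submitters' processing notes also name Trimmomatic, edgeR and RSEM. The values that the authors deposited are on a log2 scale and named log CPM. Taken as powers of 2, all values over 0 (100% in each library) fell within 0.01% of whole numbers, so they hold read counts without scaling. Entries of 0, which could be 0 reads or 1, were taken as 0. The study lists 1 sequence per row. Its supplementary tags give sequences with other ends apart, so rows seem to count exact sequences. How reads with several matches were counted is not given in the sources used here. The mRNA table was not used.

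CPM were taken from column sums. No test was planned, since each group had 1 library. Intervals of levels, changes and shares are Clopper-Pearson, and those of ratio changes are normal on the log scale. The alternatives comprised scaling by a trimmed mean of log ratios to 0 dpa (trimming 30% of ratios and 5% of abundances at each end), by median of ratios, by totals leaving out miR-21 or not at all. Also tried were 0.1 or 5 CPM as pseudocount, 100 CPM or nothing as the minimum mean, a threshold of 1, counting intervals wholly past the threshold, and 1 read for entries of 0. Median of ratios without the 7 dpa library was added after the data were seen. Named beside the members were the 3 nearest profiles of each, miR-21, and lists from vascular smooth muscle and from cell types. The members and lists were chosen with earlier results of these data known. Sequences came from the study's sequence list, which holds all 153 rows, and no value of its supplementary files was used. Calculations used Python 3.11.15, numpy 2.4.6, scipy 1.17.1, pandas 2.3.3 and matplotlib 3.10.9. The code for trimmed mean scaling, changes and their intervals was tested on simulated counts, and the other steps were not.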

Additional observations from a re-analysis of the deposited data

Results flagged for a closer look

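Opposite directions at different time points were looked for, with the whole counting interval past 1.5-fold each way. miR-222a met this, with a log2 change of 3.24 at 7 dpa against -1.43 at 3 dpa and -3.26 at 14 dpa. The log2 ratio of miR-222a to miR-222b met it as well, with 4.71 at 7 dpa against -1.50 at 3 dpa and -1.94 at 14 dpa. These differences were not tested, since each time point had 1 library. The change of miR-222a at 3 dpa fell short of 1.5-fold under the trimmed mean (-0.19), median of ratios (-0.23) and totals without miR-21 (-0.33), and lay near that of the median miRNA under each, whereas the ratio does not depend on scaling. With no depth scaling miR-222a was lower at 7 dpa too (-1.71), so its directions were then not opposite.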

How the results depend on the processing

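No paired analysis was possible because each group held 1 library. The count of members past 1.5-fold at 3 dpa was 1 under library totals (lower), 2 under the trimmed mean, median of ratios, totals without miR-21 and median of ratios without the 7 dpa library (each time 2 higher and 0 lower), and 3 with no depth scaling (all lower). At 7 dpa it was 3 throughout, but with no depth scaling 1 was higher and 2 lower, since miR-222a reversed to -1.71. At 14 dpa it was 2 throughout. Both were lower under library totals, while 1 was higher and 1 lower under the trimmed mean, median of ratios with and without the 7 dpa library, and totals without miR-21. There miR-222b reversed to 0.18 under median of ratios and to 0.20 without the 7 dpa library. Over all miRNAs the split of higher against lower was 26 to 94 at 3 dpa, 55 to 54 at 7 dpa and 20 to 96 at 14 dpa under library totals. It was 53 to 56, 49 to 57 and 45 to 65 under the trimmed mean, 49 to 57, 53 to 56 and 59 to 56 under median of ratios, 47 to 62, 85 to 43 and 46 to 64 without miR-21, and 12 to 113, 3 to 137 and 25 to 89 with no depth scaling. Pseudocounts, filters, the threshold of 1, the whole interval and the reading of a listed 0 left the counts of members within 1.5 times. Scaling cannot alter a ratio within a library, so ratio changes were recalculated only with 1 or 5 CPM added to both levels. All 18 recalculated values moved by less than their counting error. The 7 dpa library, at 196763 reads, limits the precision of miR-222b most, with 77 reads. A scaling shifts all miRNAs of a library together, so these shifts follow that of the median miRNA.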
